A study of Mus musculus with 12 samples.

Results

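The genes described here are 37 enzymes, transporters and regulators of 4 connected pathways: 15 of glycolysis, 10 of the hypoxia response, 4 of the pentose phosphate pathway and 8 of the tricarboxylic acid (TCA) cycle. They were chosen by name, and each was represented by the array probes that the platform annotation assigns to its symbol. The array names 19057 genes in all. Probes were found for 33 of the 37, and 29 were detected well enough to be compared between groups. The comparison asked how these pathways differ in lung macrophages long after a dose of carbon nanotubes.

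Glycolysis breaks glucose down to pyruvate and lactate in the cytosol, the pentose phosphate pathway diverts glucose phosphate to make NADPH and ribose, and the TCA cycle oxidises pyruvate-derived carbon in mitochondria. The hypoxia-inducible factor (HIF) is kept low by oxygen-dependent prolyl hydroxylases, and when it accumulates it raises transcription of glucose transporters, most glycolytic enzymes and a set of survival and pH genes. Macrophages activated by bacterial products are known for high glycolysis and for an interrupted TCA cycle, whereas resident alveolar macrophages live in an oxygen-rich, glucose-poor space.

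RNA was measured on Illumina Mouse WG-6 v2 bead arrays in macrophages washed from the lungs of C57Bl/6 mice, 1 array for each of 12 animals. The control group was 6 mice given a vehicle of 35% surfactant in saline by the oropharyngeal route. The other 6 mice received 100 µg of multiwalled carbon nanotubes (MWCNT) in that vehicle, and cells were collected at day 60 in both groups. The labels give a purity above 90% and no sex or age, and the MWCNT group is a single dose and time. In such bulk samples, fewer cells of a type and less RNA per cell cannot be told apart.

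Between 38.0% and 39.3% of probes were detected on the control arrays and between 39.1% and 40.5% on the MWCNT arrays, where detected means a detection p-value under 0.05 against the negative-control beads. Correlations within a group ran from 0.986 to 0.994 in controls and from 0.984 to 0.993 in MWCNT mice. MWCNT arrays 5 and 6 carried signal from Y-linked genes and the other 10 arrays did not, so calls that change without them are given both ways. Of 12 alveolar macrophage markers on the array, 10 were measured, among them Marco, Pparg and Chil3 on all 12 arrays, whereas Siglecf and Fabp4 were below the detection filter. The brightest probe for any of the 37 genes reached 16477 to 23610 units, below the array maxima of 35241 to 46154, so none sat at the top of the scanner's range.

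HIF binds a short core, ACGTG or GCGTG, on either strand, and glycolytic genes are textbook targets, so the core was looked for in the 250 bases before each gene's start (RefSeq windows, build GRCm38.p6). The windows below belong to the 2 genes whose RNA rose (Pgam1 and Tkt) and to a pair of known hypoxia targets that did not pass the test (Pgk1 and Egln3). Each reads 5′ to 3′ on the gene's own strand, with every core in capitals. A core read from the other strand appears as CACGT or CACGC, and CACGTG would count on both. The Pgam1 window lies at chr19:41911621-41911870 (plus strand), that of Tkt at chr14:30548881-30549130 (plus), that of Pgk1 at chrX:106186850-106187099 (plus) and that of Egln3 at chr12:54203875-54204124 (minus).
Pgam1: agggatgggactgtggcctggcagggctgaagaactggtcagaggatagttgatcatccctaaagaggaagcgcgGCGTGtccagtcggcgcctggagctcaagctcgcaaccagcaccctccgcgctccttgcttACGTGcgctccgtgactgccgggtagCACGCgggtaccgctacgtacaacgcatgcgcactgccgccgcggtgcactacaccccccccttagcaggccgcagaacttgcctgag
Tkt: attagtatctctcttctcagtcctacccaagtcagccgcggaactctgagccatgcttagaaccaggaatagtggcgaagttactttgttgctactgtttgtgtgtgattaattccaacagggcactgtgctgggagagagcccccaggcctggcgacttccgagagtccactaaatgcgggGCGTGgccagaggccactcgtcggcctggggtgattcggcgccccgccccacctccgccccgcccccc
Pgk1: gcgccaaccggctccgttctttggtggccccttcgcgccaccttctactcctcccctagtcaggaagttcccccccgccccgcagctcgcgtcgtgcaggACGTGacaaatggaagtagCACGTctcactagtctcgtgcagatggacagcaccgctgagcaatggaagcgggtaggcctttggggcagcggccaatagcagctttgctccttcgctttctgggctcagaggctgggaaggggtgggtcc
Egln3: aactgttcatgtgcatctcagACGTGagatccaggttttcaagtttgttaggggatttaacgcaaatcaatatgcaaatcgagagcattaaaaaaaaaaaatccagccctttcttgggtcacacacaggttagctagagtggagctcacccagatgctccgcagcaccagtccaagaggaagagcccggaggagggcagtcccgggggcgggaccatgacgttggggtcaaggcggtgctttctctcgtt
The Pgam1 window held 1 ACGTG and 2 GCGTG cores, the Tkt window 1 GCGTG core, the Pgk1 window 2 ACGTG cores and the Egln3 window 1 ACGTG core. At least 1 of the cores was found in 82.1% of the 39 windows of the measured genes of interest. The share was 55.1% for the 10591 windows of all named genes measured here and 38.6% for all 32851 windows. The 39 windows belong to 26 genes, and a gene with several starts counts more than once, Ogdh with 6. The list was chosen to hold hypoxia and glycolysis genes, so no excess is read from these shares. The cores are short and rich in CpG, and a match is a description of the sequence, not of binding. Ndrg1 is named without a window.

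Few of these genes differed between MWCNT and control mice. Of the 29 measured, 2 rose, Pgam1 and Tkt, and 1 fell, Ndrg1, at an adjusted p under 0.05 (limma, Benjamini-Hochberg over 13210 features). That is 6.9% raised and 3.45% lowered, against 6.98% raised and 5.89% lowered among all features tested, so both shares were near or under the background. The median difference of the 29 was 0.046 on the log2 scale and that of all features was -0.022. Their median absolute difference was 0.136, the same to 3 digits as the 0.136 of all features. For 23 of the 29 the whole 95% confidence interval of the difference lay within 0.5 log2 units of 0. Groups that did not overlap were found for no gene in the upward direction (4.07% of all features) and for 1, Ndrg1, in the downward direction (2.81% of all features).

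**Figure D1:**
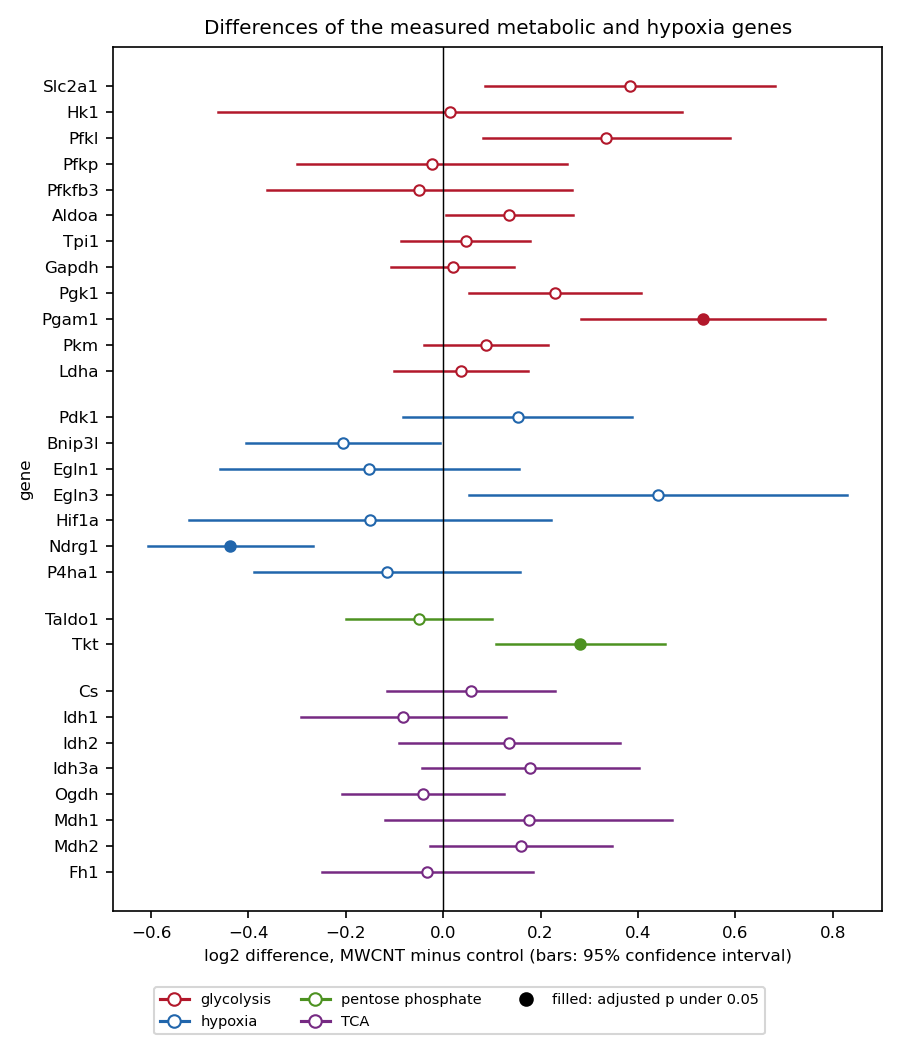
Log2 difference between MWCNT and control mice for each of the 29 measured genes, grouped by pathway, with 95% confidence intervals and 6 arrays per group; filled points have an adjusted p under 0.05. Pgam1 at 0.53 and Tkt at 0.28 are the filled points above 0, and Ndrg1 at -0.44 is the filled point below it.

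In glycolysis, 1 of 12 measured genes rose and none fell, where 6.98% of all features rose and 5.89% fell. Of the 12 differences 10 were above 0, as were 45.3% of those of all features. These signs depended on the scaling: Aldoa, Tpi1, Gapdh, Pkm and Ldha lay below 0 with scaling to the kept probes in place of quantiles. The pathway median was 0.067. Pgam1, phosphoglycerate mutase, which shifts the phosphate of phosphoglycerate on the way to pyruvate, read 9.20 at the lowest, 9.51 at the median and 9.77 at the highest control array. Its MWCNT arrays ran from 9.75 through a median of 10.12 to 10.22. The groups overlapped only because MWCNT array 6, at the bottom of its group, lay just under the highest control. The mean rose from 9.50 ± 0.23 to 10.03 ± 0.19 (SD, n = 6 each), a difference of 0.53 ± 0.12 (SE) or 1.45-fold, with a limma adjusted p of 0.00865. A dimmer second probe for Pgam1 gave 0.59 ± 0.13, and the gene stayed past the threshold in 26 of 26 alternative settings, between 0.42 and 0.66. Without the MWCNT arrays with Y-linked signal the Pgam1 difference was 0.65 (limma adjusted p = 0.00266).

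Uptake and the committed step came next in size, but none of these genes passed the test. Slc2a1, the widely expressed glucose transporter, read 9.36, 9.85 and 10.38 (lowest, median, highest) in controls and 10.03, 10.26 and 10.38 in MWCNT mice. Control array 1 was as high as the top MWCNT array, and 4 of the other 5 controls lay below every MWCNT array. The difference was 0.38 ± 0.14 with an adjusted p of 0.0862 in limma, and without control array 1 it was 0.49 (adjusted p = 0.0150). Pfkl, the liver form of phosphofructokinase, ran 9.62, 9.82 and 10.004 in controls and 9.81, 10.09 and 10.50 in MWCNT mice, a difference of 0.33 ± 0.12 (limma adjusted p = 0.0792). Its second kept probe went the other way, at -0.24 ± 0.15. Pfkl passed the threshold in 6 of 26 settings, among them the fit without MWCNT array 6 (0.40, adjusted p = 0.0365) and that without both arrays with Y-linked signal (0.43, adjusted p = 0.0360).

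The other genes of the opening steps of glycolysis gave no call. Hk1, a hexokinase, ran 5.69, 5.87 and 6.43 in controls and 5.01, 6.11 and 6.43 in MWCNT mice, with a difference of 0.014 ± 0.22. It had the widest spread among the 29, with an SD of 0.55 in the MWCNT group, and its difference was 0.34 (limma adjusted p = 0.150) without both arrays with Y-linked signal and -0.084 to 0.20 when 1 array was left out. Pfkp, the platelet form of phosphofructokinase, differed by -0.023 ± 0.13. Pfkfb3, whose product makes the main activator of phosphofructokinase, was detected on 2 control and 2 MWCNT arrays. Its values of 4.82, 5.25 and 5.65 in controls and 4.90, 5.16 and 5.60 in MWCNT mice overlapped throughout, for a difference of -0.049 ± 0.15. Hexokinase Hk2 and the isomerase Gpi1 were not analysed here.

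The enzymes that work on triose phosphates had small errors on their brightest probes. Gapdh, which oxidises glyceraldehyde phosphate, read 13.66, 13.72 and 13.77 in controls and 13.65, 13.71 and 13.86 in MWCNT mice. The groups coincided, with a difference of 0.019 ± 0.058 and a 95% interval from -0.11 to 0.15. Aldolase Aldoa differed by 0.14 ± 0.061 (limma adjusted p = 0.165) and triose phosphate isomerase Tpi1 by 0.046 ± 0.062. The other kept Tpi1 probes gave 0.19 ± 0.070 and 0.084 ± 0.14. Pgk1, the phosphoglycerate kinase just upstream of Pgam1, ran 11.001, 11.13 and 11.24 in controls and 11.12, 11.35 and 11.59 in MWCNT mice. Its difference was 0.23 ± 0.082 with an adjusted p of 0.0833 (limma), and 0.28 with an adjusted p of 0.0375 without MWCNT array 4. A second, dim Pgk1 probe gave -0.070 ± 0.25.

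At the end of the pathway, pyruvate kinase Pkm differed by 0.088 ± 0.059 and lactate dehydrogenase Ldha by 0.037 ± 0.064. Ldha read 13.45, 13.52 and 13.66 in controls and 13.49, 13.57 and 13.68 in MWCNT mice. Its groups overlapped over most of their range, and its interval ran from -0.10 to 0.17. Enolase Eno1 was not analysed here.

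**Figure D2:**
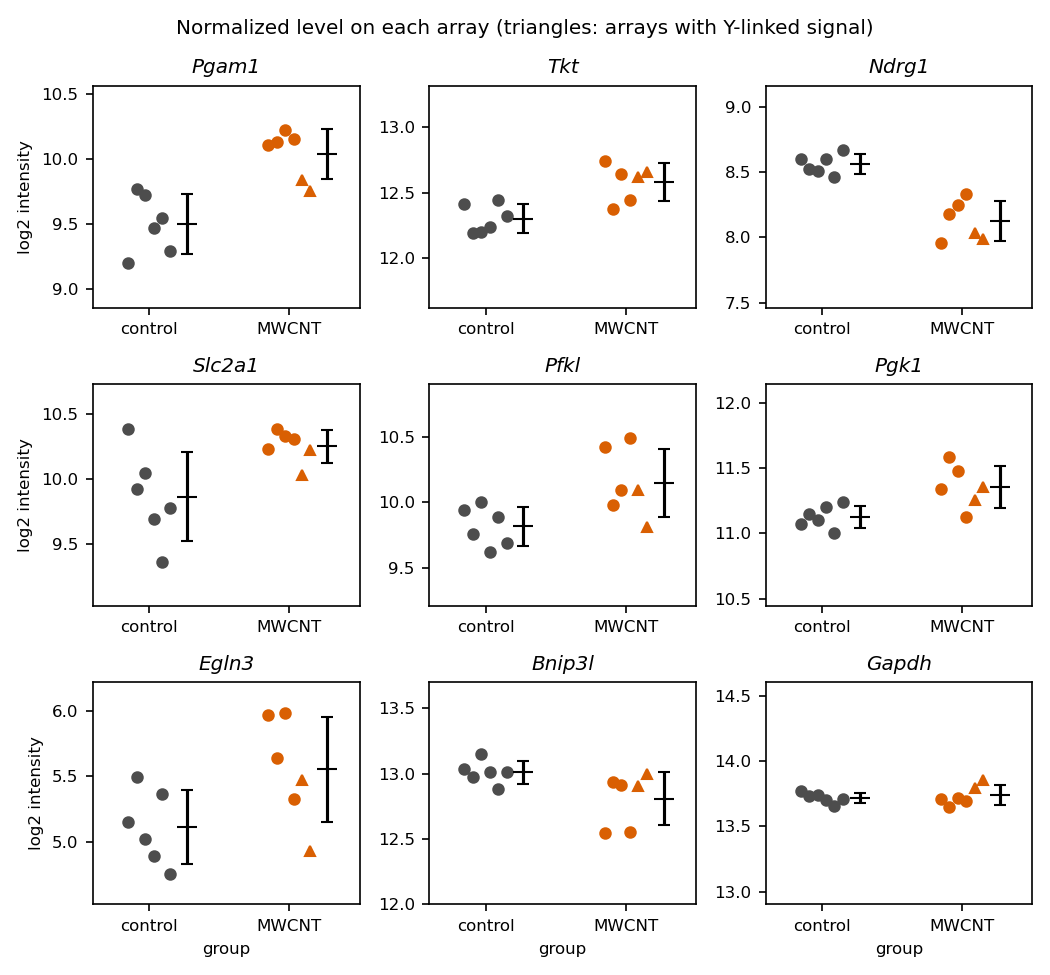
Normalized log2 intensity on each of the 12 arrays for 9 of the genes, with the mean and SD of each group beside the points; every panel spans the same 1.7 log2 units around its own midpoint and triangles mark MWCNT arrays 5 and 6. Ndrg1 is the panel without overlap between groups, and in the Pgam1 panel the triangles are the lowest MWCNT points.

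Among hypoxia genes 1 of 7 measured fell and none rose, where 5.89% of all features fell and 6.98% rose. Of the 7 differences 5 were below 0, where 45.3% of all features were above it, and the median was -0.15. Ndrg1, a stress-response gene induced by low oxygen, read 8.46, 8.56 and 8.67 in controls and 7.96, 8.11 and 8.33 in MWCNT mice. Every MWCNT array lay below every control array. The mean fell from 8.56 ± 0.076 to 8.12 ± 0.15 (SD, n = 6 each), a difference of -0.44 ± 0.078 and an adjusted p of 0.00250 in limma. A second Ndrg1 probe, detected on all 12 arrays, differed by only -0.074 ± 0.098 (adjusted p = 0.685 in limma over kept probes). With the mean of both probes the gene was no longer past the threshold (-0.26, adjusted p = 0.0558), nor with median scaling of the arrays (-0.25, adjusted p = 0.148), and in the authors' values its difference was -0.23.

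The regulators of the pathway showed no call. Hif1a, the oxygen-regulated HIF subunit, read 7.53, 8.03 and 8.36 in controls and 7.55, 7.74 and 8.41 in MWCNT mice. The groups overlapped almost fully, with a difference of -0.15 ± 0.17 and an interval from -0.52 to 0.22. Of the prolyl hydroxylases that mark HIF for destruction, Egln1 differed by -0.15 ± 0.14, and its other 2 probes lay at -0.21 and -0.25. Egln3, the hydroxylase that is itself a HIF target, was detected on no control array and on 4 MWCNT arrays. It read 4.75, 5.09 and 5.49 in controls and 4.93, 5.56 and 5.99 in MWCNT mice, for a fitted difference of 0.44 ± 0.18 and an adjusted p of 0.128 in limma. With control values raised to the lowest signal of a detected probe, the Egln3 means differed 1.06-fold, an estimate given without an error. Egln3 entered the comparison through the MWCNT arrays alone, since no control array detected it. Its place among the measured genes was therefore set by the group where it read higher. The value itself did not depend on the filter, being 0.44 without it as well. The Egln3 probes below the filter, detected on no array, gave 0.40 and 0.11. Over all settings the Egln3 difference ran from 0.067 in the authors' values, through 0.14 without background correction, to 0.62 without both arrays with Y-linked signal. It was past the threshold in 3 of 25 settings, each of which left out or adjusted for MWCNT array 6, its lowest MWCNT value.

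Other hypoxia targets did not pass the test. Pdk1, the kinase that closes the pyruvate dehydrogenase complex, read 9.08, 9.38 and 9.59 in controls and 9.22, 9.61 and 9.75 in MWCNT mice. Its groups overlapped, at a difference of 0.15 ± 0.11 and an adjusted p of 0.399 (limma). Bnip3l, a receptor for the removal of mitochondria, differed by -0.21 ± 0.093 (limma adjusted p = 0.169), and P4ha1, a collagen prolyl hydroxylase subunit, by -0.12 ± 0.13. Bnip3, the vasodilator gene Adm and the oxidoreductase gene Ero1l (annotated as Ero1a) were below the detection filter, with Adm detected on 1 MWCNT array and the others on none.

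In the pentose phosphate pathway 2 of the 4 genes were measured. Tkt, transketolase of the non-oxidative branch, read 12.19, 12.28 and 12.45 in controls and 12.37, 12.63 and 12.74 in MWCNT mice. MWCNT arrays 2 and 4 fell within the control range and the other 4 did not. The mean rose from 12.30 ± 0.11 to 12.58 ± 0.14 (SD, n = 6 each), a difference of 0.28 ± 0.081 or 1.22-fold (limma adjusted p = 0.0356). Its other kept probes, both dimmer, gave 0.0023 ± 0.15 and 0.070 ± 0.16, and with the mean of the probes the difference was 0.12 (adjusted p = 0.530). The call was also lost with scaling to the kept probes in place of quantiles (0.13, adjusted p = 0.306), without both arrays with Y-linked signal (0.25, adjusted p = 0.114) and in 8 of 12 fits that left out 1 array, namely control 2, 3, 4 or 6 or MWCNT 1, 3, 5 or 6, where the adjusted p lay between 0.0596 and 0.0776. Taldo1, transaldolase, differed by -0.050 ± 0.070. Pgd, of the oxidative branch, was detected on no array, and G6pdx, the first enzyme of that branch, was not analysed here.

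In the TCA cycle all 8 genes were measured and none passed the test. There 5 differences were above 0 and 3 below, where 45.3% of all features were above 0. The median was 0.097 and every 95% interval lay between -0.29 and 0.47. The largest difference was that of Idh3a, a subunit of the NAD-linked isocitrate dehydrogenase. It read 8.51, 8.65 and 9.01 in controls and 8.70, 8.89 and 9.15 in MWCNT mice, a difference of 0.18 ± 0.10 between overlapping groups (limma adjusted p = 0.286). A second, dim Idh3a probe gave 0.40 ± 0.17. Idh1, the cytosolic NADP-linked form, read 12.24, 12.53 and 12.73 in controls and 12.22, 12.43 and 12.61 in MWCNT mice. The groups covered much the same range, at a difference of -0.082 ± 0.098 (adjusted p = 0.643 in limma).

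On the brightest probes the other values around the cycle were small. Citrate synthase Cs differed by 0.058 ± 0.080, the mitochondrial isocitrate dehydrogenase Idh2 by 0.14 ± 0.11, the oxoglutarate dehydrogenase subunit Ogdh by -0.041 ± 0.077 and fumarase Fh1 by -0.032 ± 0.10. A second, dimmer Fh1 probe went the other way, at 0.30 ± 0.20. The malate dehydrogenases stood at 0.18 ± 0.14 for the cytosolic form Mdh1 and 0.16 ± 0.087 for the mitochondrial form Mdh2, and Mdh1 at 0.052 without both arrays with Y-linked signal.

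Paralogs were compared within each array, which removes a constant shift between arrays but not the effect of quantile normalization. The question was whether the difference between MWCNT and control mice was the same for both forms of an enzyme. It was tested by an exact two-sided permutation over all splits of the 12 arrays into groups of 6. An adjustment over all 4 pairs draws on the p of Egln3 minus Egln1, so p-values are given unadjusted unless named otherwise. Egln3 minus Egln1 was 0.59 higher in MWCNT mice, a value given without a p because Egln3 entered through the MWCNT arrays alone, and it was 0.42 with median scaling, 0.13 in the authors' values and 0.22 where background was not corrected. For Pfkp minus Pfkl the value was -0.36 (p = 0.113, exact permutation) and for Idh2 minus Idh1 it was 0.22 (p = 0.242, exact permutation). Mdh2 minus Mdh1 stood at -0.016 (p = 0.887, exact permutation). None of these 3 p-values was under 0.05, even unadjusted, and the smallest p the splits allow is 0.00216. Among fits that left out 1 array, Idh2 minus Idh1 ran from 0.14 without control array 4 to 0.34 without control array 1. The adjusted p of the latter was 0.0476 by exact permutation. That adjustment was over 4 pairs and so drew on the p of Egln3 minus Egln1, and no pass is read from it. Without both arrays with Y-linked signal Pfkp minus Pfkl was -0.55 and Mdh2 minus Mdh1 was 0.080, the opposite sign. Hk2 against Hk1 and Bnip3 against Bnip3l could not be compared.

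**Figure D3:**
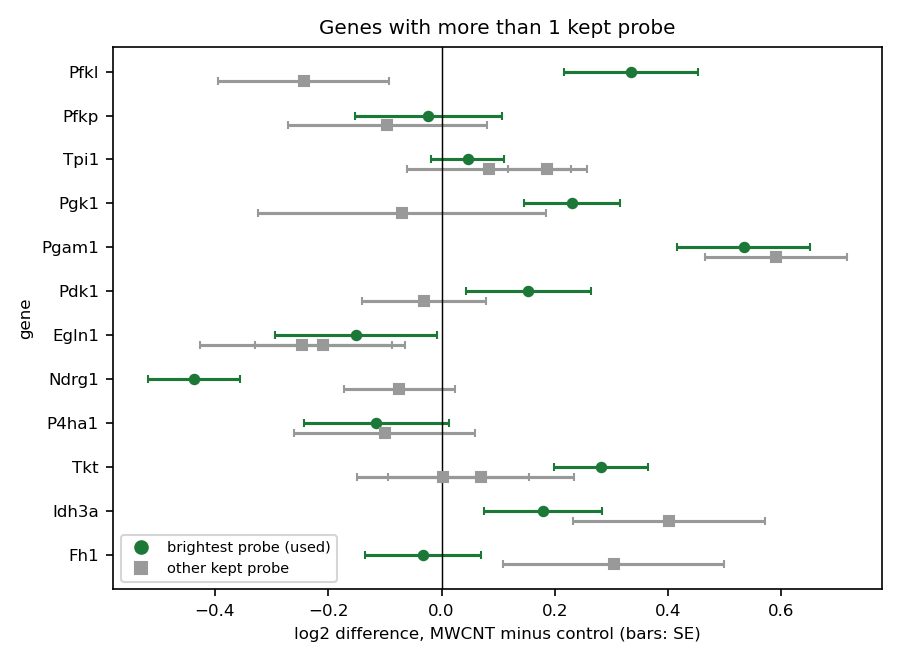
Log2 difference and SE for each kept probe of the 12 measured genes that had more than 1, with the brightest probe, which the comparison used, as circles and the others as squares. The Pgam1 probes lie at 0.53 and 0.59, whereas the Ndrg1 probes lie at -0.44 and -0.074 and the Pfkl probes at 0.33 and -0.24.

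Set side by side, 3 pathway medians lay above 0 and 1 below. The median difference was 0.067 for glycolysis, 0.12 for the pair of pentose phosphate genes, 0.097 for the TCA cycle and -0.15 for the hypoxia genes. These signs depended on the scaling. Median scaling turned the hypoxia median to 0.078. Scaling to the kept probes in place of quantiles turned glycolysis to -0.070, the pentose phosphate pair to -0.066 and the TCA cycle to -0.017. The median of all features moved too, to 0.0998 and -0.10 in these settings. In both, the hypoxia median was below that of all features and the other 3 were above it. The gap between the glycolysis and hypoxia medians was 0.22 and lay between 0.055 and 0.28 in all settings run. Without both arrays with Y-linked signal the TCA median was 0.037 and the hypoxia median -0.088. On each array the mean of the glycolysis genes, taken from the control mean, minus that of the hypoxia genes ran from 0.11 to 0.33 in MWCNT mice and from -0.12 to 0.13 in controls. The 2 ranges overlapped slightly. Glycolysis minus the TCA cycle ran from -0.076 to 0.31 in MWCNT mice and from -0.16 to 0.11 in controls, with wide overlap. The glycolysis mean itself was 0.16 to 0.21 on MWCNT arrays 1 to 4 and 0.051 and 0.073 on arrays 5 and 6. The genes were chosen with results known, so these summaries carry no test.

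Some other genes of the same pathways had larger differences. The counts in these further lists are small and stand beside 6.98% raised and 5.89% lowered among all features. Among 16 measured further glycolysis and lactate genes, 3 rose and 1 fell, with a median of 0.14. Of the 3, 1 (Eno2) was counted only because the MWCNT arrays detected it. Eno2, an enolase form typical of neurons, was detected on no control array and on all 6 MWCNT arrays. It read 4.75, 4.91 and 5.17 in controls and 6.11, 6.59 and 7.05 in MWCNT mice, without overlap. With control values raised to the lowest detected signal the Eno2 means differed 2.14-fold, an estimate given without an error. Eno2 therefore entered the comparison through the MWCNT arrays alone, and no p is given for it. Its fitted difference of 1.64 was 0.29 in the authors' values. Slc2a3, a high-affinity glucose transporter, rose by 0.69 ± 0.18 (limma adjusted p = 0.0203), or 0.14 in the authors' values, and the hexokinase Hk3 by 0.35 ± 0.11 (adjusted p = 0.0458), the latter past the threshold in 13 of 26 settings. Adpgk, an ADP-dependent glucokinase, differed by -0.34 ± 0.083, a fall (limma adjusted p = 0.0165). It was past the threshold in 22 of 26 settings, between -0.43 and -0.23. Fbp1, of gluconeogenesis, stood at 0.78 ± 0.34 (adjusted p = 0.156, limma), and ran from 0.15 in the authors' values, through 0.27 without background correction and 0.50 without MWCNT array 1, to 1.14 (adjusted p = 0.0381) without both arrays with Y-linked signal.

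Of 9 genes for pyruvate entry into mitochondria, 1 rose: Pdk4, a kinase that closes the pyruvate dehydrogenase complex, by 0.69 ± 0.19 (limma adjusted p = 0.0299). It was past the threshold in 8 of 12 fits that left out an array. Of 22 further hypoxia genes 2 rose, where 6.98% of all features did, and the median was -0.035. Of the 2, 1 (Vegfa) was counted only because the MWCNT arrays detected it. Vegfa, the vascular growth factor and a textbook HIF target, was detected on no control array and on 4 MWCNT arrays. It read 4.53, 4.68 and 5.16 in controls and 4.98, 5.60 and 6.59 in MWCNT mice, with overlap. With control values raised to the lowest detected signal the Vegfa means differed 1.16-fold. Vegfa passed the detection filter through the MWCNT arrays alone, so no p is given for it. Its fitted difference of 0.92 was 0.16 in the authors' values. Plod1, a collagen lysyl hydroxylase, rose by 0.40 ± 0.12 (limma adjusted p = 0.0409), a call kept in 3 of 12 fits that left out an array. None of 7 further pentose phosphate genes passed.

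Of 16 further TCA-cycle genes, 2 rose and 1 fell, with a median of 0.039. Acod1 (formerly Irg1), which turns an intermediate of the cycle into the antimicrobial acid itaconate, had the widest difference in any of these pathway lists. It read 5.19, 5.52 and 6.20 in controls and 6.88, 7.37 and 8.69 in MWCNT mice, with no MWCNT array down in the control range. The difference was 1.96 ± 0.28 (limma adjusted p = 0.000439), past the threshold in 25 of 25 alternative settings but between 0.52 in the authors' values and 2.23 in size. Sdhd, a membrane anchor of succinate dehydrogenase, rose by 0.44 ± 0.097 (limma adjusted p = 0.00862) without overlap between groups. Suclg2, a subunit of succinyl-CoA ligase, fell, at -0.24 ± 0.070 (limma adjusted p = 0.0411), a call kept in 3 of 12 fits without 1 array.

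**Figure D4:**
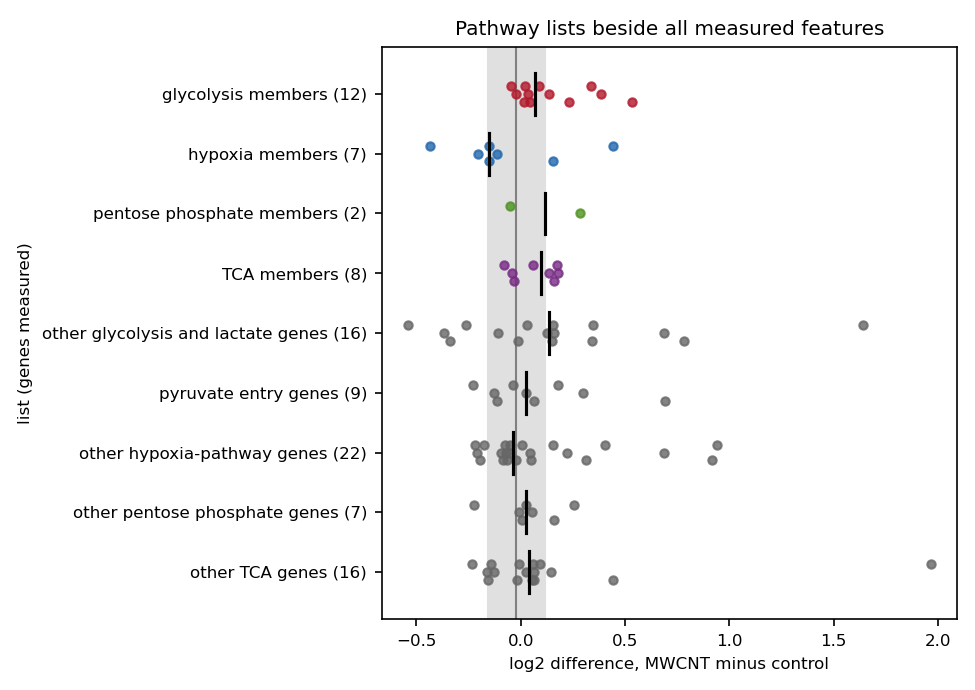
Log2 difference between MWCNT and control mice for every measured gene of the 4 pathways and of the 5 lists of further pathway genes, with a bar at each list's median; the grey band holds the middle 50% of all features and the grey line their median of -0.022. The points far to the right are Acod1 at 1.96 and Eno2 at 1.64, the latter detected on no control array. The hypoxia median of -0.15 lies at the left edge of the band. With median scaling it was 0.078, where the median of all features was 0.0998.

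Markers of other cells moved with the MWCNT group. Some were detected on no control array and so were measured only through the MWCNT arrays: 4 of the 12 measured T and NK cell markers, all 3 B cell markers, 2 of 6 neutrophil markers, 3 of 13 markers of monocyte-derived macrophages and 2 of 7 dendritic cell markers. Of 12 measured T and NK cell markers 10 rose, and their mean level relative to controls was 0.84 to 2.38 on the MWCNT arrays and -0.21 to 0.20 on the control arrays. The T cell genes Il7r and Icos rose by 2.38 and 1.78 (1.33 and 0.51 in the authors' values), while Cd4 and Cd8a were below the detection filter. The B cell markers, among them Cd79b and Blnk, had a level of 0.30 to 3.49 on the MWCNT arrays. No control array detected them, so that level is measured from undetected signal, and their count of calls was fixed largely by the filter. In the authors' values Cd79b differed by 0.74 and Blnk by 0.27, and Ms4a1 and Pax5 were below the filter. Of 6 neutrophil markers 4 rose, led by S100a9 and Il1r2 (0.90 and 0.21 in the authors' values). Their level was 0.64 to 1.45, while Mpo, Elane and Camp were below the filter. Of 13 markers of monocyte-derived macrophages 10 rose, led by Gpnmb and C1qb, with a level of 0.57 to 1.24.

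Of 7 dendritic cell markers 5 rose, led by Ccr7 and Itgae, and their level was 0.20 to 0.96 on the MWCNT arrays. Epithelial markers gave 2 raised of 8 (Cdh1 and Scgb1a1), erythroid and platelet markers 1 of 4 (Pf4, while Hbb-bs spread widely in both groups) and proliferation markers 2 of 7 (Rrm2 and Birc5). Birc5 was past the threshold in only 12 of 26 settings and in 4 of 12 fits without 1 array. Among all features 6.98% were raised. Of 10 alveolar macrophage markers 3 rose and 2 fell, with Fabp5 at 0.92 and Cidec at -0.58, and their mean level was 0.026 to 0.21 on the MWCNT arrays. MWCNT array 5 had the lowest level for T and NK, B, neutrophil, dendritic cell and monocyte-derived macrophage markers, and also the lowest for the glycolysis genes. The part of these cells in the values of Pgam1, Tkt, Ndrg1 and the other genes was not tested.

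**Figure D5:**
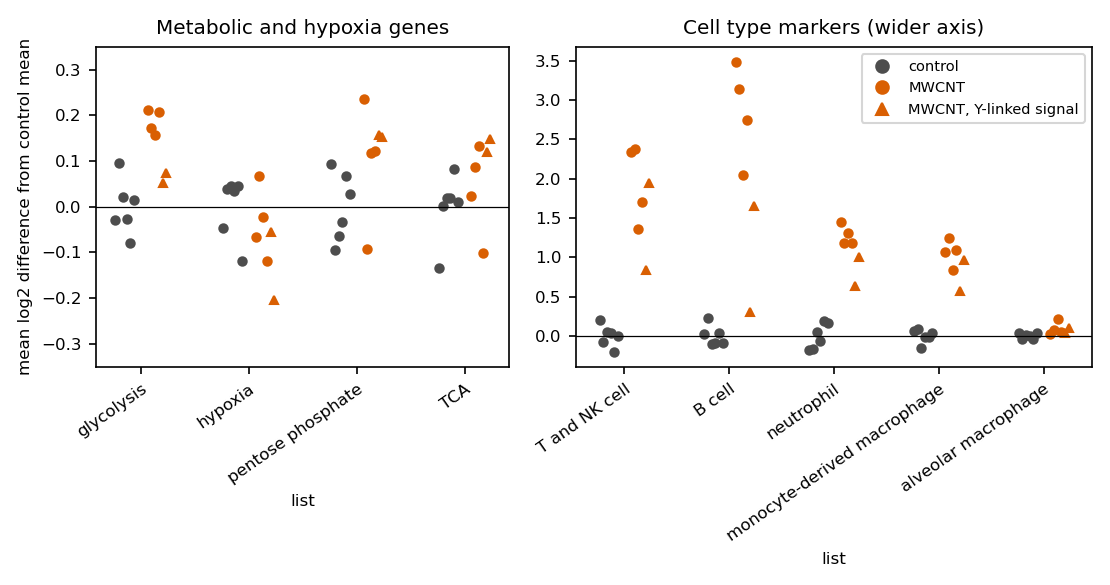
Mean log2 difference from the control mean over the genes of each list, 1 point per array, for the 4 pathways (left) and for 5 marker lists (right, on a wider axis); triangles are MWCNT arrays 5 and 6. The pathway means stay between -0.20 and 0.24, while the T and NK marker level runs from 0.84 to 2.38 in MWCNT mice.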

How the data were processed

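RNA of 12 samples was measured on 12 arrays. The scanner table as deposited gives 2 columns per array (per the file headers): a linear, unnormalized signal intensity and a detection p-value. Intensity values that the authors processed and deposited served as an alternative. The submitters' processing notes name lumi, with settings not given in the sources used here. Intensities were background-corrected, quantile-normalized and log2-transformed with neqc (limma 3.58.1, R 4.3.3, offset 16). Of 45281 probes, 34885 had 1 symbol, 18 several and 10378 none. The 19291 probes with a detection p under 0.05 on at least 3 arrays were kept, and the brightest kept probe stood for its gene, leaving 13210 features. Groups were compared with lmFit and eBayes, two-sided, with Benjamini-Hochberg adjustment over all features. The script was tested on simulated data. Samples came from separate animals, and same-numbered arrays were treated as not paired (correlations of their deviations from -0.18 to 0.15). The number of arrays limits precision.

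The members and lists were chosen with earlier results of these data known. Values per array were given for members past the threshold, for the largest difference in each pathway and for a fixed set of rate-limiting or reference genes. From other lists, genes past the threshold (or a fixed few) were named, and from each marker list the 2 with the smallest adjusted p. For a gene undetected on all arrays of a group, a fold was also given with that group's values raised to the lowest detected signal. It is an estimate in the main normalization, without an error, and not a lower limit. Promoter windows are RefSeq's (GRCm38.p6), and 34 of 37 members had one.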

Additional observations from a re-analysis of the deposited data

Results flagged for a closer look

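In 58 groups of 6 arrays (29 genes, 2 groups each), 2 had 1 array far from the rest, where chance alone gives about 1 in 20. Hk1 was high on control array 2, at 6.43 against 5.93 on the next array and 5.69 on the lowest, a gap of 0.680 of the group's range. Pfkp was high on MWCNT array 5, at 11.89 against 11.48 on the next array and 11.24 on the lowest, a gap of 0.633 of the range. Neither gene was called. The cause was not tested.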

How the results depend on the processing

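The 29 genes were recomputed under 26 other settings. Pgam1 stayed past the threshold in 26, Ndrg1 in 24 and Tkt in 14. Of the genes not called, 9 were called under some setting, and 14 of the 29 changed sign under some setting. Median scaling over all probes moved the median of all features from -0.022 to 0.0998 and gave 5 members raised and 0 lowered, 1688 features raised and 214 lowered, and a hypoxia median of 0.078, so signs there are read against that shift. Scaling to the median of kept probes in place of quantiles, chosen after seeing the data, moved the median of all features to -0.10 and gave 1 member raised and 3 lowered, 1861 features lowered, and medians of -0.070 for glycolysis, -0.066 for the pentose phosphate pair and -0.017 for the TCA cycle. The authors' values, the trended robust variances and the array weights each gave 4 members raised. The mean of a gene's probes gave 1 raised and 0 lowered, and probes detected on all 12 arrays gave 540 features raised, with fewer features tested. Leaving out 1 array gave 1 to 3 members raised, Egln3 minus Egln1 of 0.49 to 0.68 (but 0.13 in the authors' values and 0.22 without background correction) and Idh2 minus Idh1 of 0.14 to 0.34. With the replicate block 2 members were raised and 1 lowered, with 850 features raised and 638 lowered, and each array correlated best with its own number for 3 of 6 pairs. Same-numbered arrays had correlations from -0.18 to 0.15, which is mixed, and the labels give only a number, so the arrays were treated as not paired. Causes of these changes were not tested. The chip could not be used as a block because the columns name none, and the paralog comparisons were not run with weights, trend, block or covariate. Signal over background limits the dim genes Pfkfb3, Egln3 and Hk1.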
